A study of Mus musculus with 96 samples.

Results

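Amino acids that pass the glomerular filter are taken back almost entirely by the kidney tubule, and the 10 genes described here encode carriers and carrier subunits of that uptake. They are Slc6a19, Slc6a18, Slc6a20b, Slc1a1, Slc3a1, Slc7a9 and Slc7a13, whose proteins lie in the apical (luminal) membrane, and Slc7a7, Slc7a8 and Slc3a2, whose proteins lie in the basolateral membrane. The members were chosen by symbol from a list of known carriers, with earlier results of these data known. All 10 were found among the 54532 genes of the mouse table. All 10 also passed the filter on low values, a mean of at least 1 TPM in at least 3 mice, which left 33793 genes for testing. TPM is a transcript abundance per length, scaled so that samples have equal totals, and so levels of different genes can be compared on this scale.

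Transcripts were measured by low-input RNA sequencing in hand-dissected pieces of normal kidney, to map expression along the nephron. All groups came from male C57BL/6 mice of 6 to 8 weeks that had free access to ordinary chow and water, with no allele or treatment added. The 15 groups began with glomeruli (GL) and the proximal tubule, taken as the start of its convoluted part (PTS1), its straight part within the medullary rays of the cortex (PTS2) and its last stretch in the outer stripe (PTS3). Henle's loop was divided into the descending limb of short loops (DTL1), that of long loops in outer (DTL2) and inner medulla (DTL3), the ascending limb where it is thin (ATL), and its thick part in medulla (MTAL) and cortex (CTAL). The distal nephron was divided into DCT (distal convoluted tubule), CNT (connecting tubule) and the collecting duct within the cortex (CCD), the outer (OMCD) and the inner medulla (IMCD). Dissected pieces hold every cell of the segment and whatever adheres to it. The 93 samples came from 53 mice, with 5 mice in PTS2, CTAL and CCD, 4 in ATL and OMCD and 3 in every other group, and the pieces of 1 mouse and segment were averaged. Levels below are means ± SD over mice. Differences are in log2(TPM + 1), and a gene was called different when limma's test gave a Benjamini-Hochberg adjusted p under 0.05 over all 33793 genes and the log2 difference was at least 1 in size.

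Uptake runs in a relay across the cell. In the apical membrane, Slc6a19 carries neutral amino acids with sodium and is the gene mutated in Hartnup disorder, Slc6a18 is a related carrier for glycine and other neutral amino acids, and Slc1a1 carries glutamate and aspartate. Slc3a1 encodes a heavy subunit that pairs with the carrier Slc7a9 to take up cystine and basic amino acids, and mutations of either cause cystinuria. The same heavy subunit can also pair with Slc7a13, a carrier of acidic amino acids and cystine. On the basolateral side Slc3a2 is the heavy subunit, pairing with Slc7a7, which exports basic amino acids and is mutated in lysinuric protein intolerance, and with Slc7a8, which exchanges neutral amino acids. Collectrin, encoded by Cltrn, is needed to bring Slc6a19 and its relatives to the apical surface of the tubule.

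The proximal segments carried proximal marker transcripts, with gradations between PTS1, PTS2 and PTS3. The summed level of 7 proximal genes (Lrp2, Cubn, Slc34a1, Miox, Kap, Fbp1 and Pck1) averaged 24893, 50802 and 80221 TPM in PTS1, PTS2 and PTS3. It was 2877 TPM in DTL1 (1243 to 4595 over mice), 282.5 TPM in DTL2 (155 to 536) and between 1.89 and 295.9 TPM in the other tubule groups. Kap, an androgen-regulated kidney gene that averaged 254 TPM in PTS1 and 75375 TPM in PTS3, accounts for this order, since the other 6 markers summed to 24639, 14702 and 4846 TPM in the same 3 segments, 379 TPM in DTL1 and 52.1 TPM in DTL2. Slc5a2, the mark of the first part, averaged 2792 TPM in PTS1, 0.688 TPM in PTS2 and 0 in every PTS3 mouse. Slc22a6, the mark used for the middle part, averaged 981 TPM in PTS2, 30.9 TPM in PTS1 and 1.45 TPM in PTS3. The pair Slc22a7 and Slc5a1, taken as marks of the last part, did not set it apart, with a summed 2561 TPM in PTS2 and 1498 TPM in PTS3. This sum was also 389.7 TPM in CTAL and 115 TPM in MTAL. Some groups also showed signal at many olfactory and vomeronasal receptor genes. A median of 860 of 1740 such genes reached 1 TPM in DTL1 mice, 623 in GL, 484 in DTL3, 309 in DTL2, 302 in ATL and 99 in OMCD, against at most 27 in any proximal mouse. The source of this signal and its part in the results below were not tested.

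The 10 carriers were mainly proximal transcripts. Their summed level was 4189 ± 527 TPM in PTS1 (n = 3), 5100 ± 267 TPM in PTS2 (n = 5) and 3238 ± 558 TPM in PTS3 (n = 3), followed by 1208 ± 117 TPM in DTL2 and 484 ± 81.7 TPM in DTL1, with 73.7 to 374 TPM in the other 10 groups. For the 7 apical genes the sum was 2186, 4938 and 3203 TPM from PTS1 to PTS3, and for the 3 basolateral genes it was 2003, 161 and 34.7 TPM. The apical sum thus peaked in the middle of the proximal tubule, whereas the basolateral sum was at its lowest of all groups in PTS3. When the 3 proximal groups were set against the other 11 tubule groups, 8 of the 10 genes were higher in the proximal tubule, against 4.02% of all genes tested (19.8% were lower and 23.8% were called in either direction). The median log2 difference was 4.88 over the 10 members and -0.41 over all genes. Because the members were chosen with earlier results of these data known, these shares and medians are a description only. Differences among the called members ran from 2.44 for Slc6a19 (SE 0.19, adjusted p 1.07e-15 by limma) to 8.07 for Slc3a1 (SE 0.15, adjusted p 3.98e-38). Slc7a8 (0.10, SE 0.17) and Slc3a2 (-0.06, SE 0.08) were not called, and their directions depend on the processing, with alternatives from -0.36 to 0.88 for Slc7a8 and from -0.08 to 0.86 for Slc3a2, the upper ends coming from rescaling. Of all genes called in this comparison 16.9% were higher in the proximal tubule, a share that became 49.8% after median ratio rescaling and 51.7% under quantile normalization, which moved the median of all genes from -0.41 to -0.19 and -0.11. In these bulk samples fewer cells of a type and less RNA per cell cannot be told apart.

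**Figure D1:**
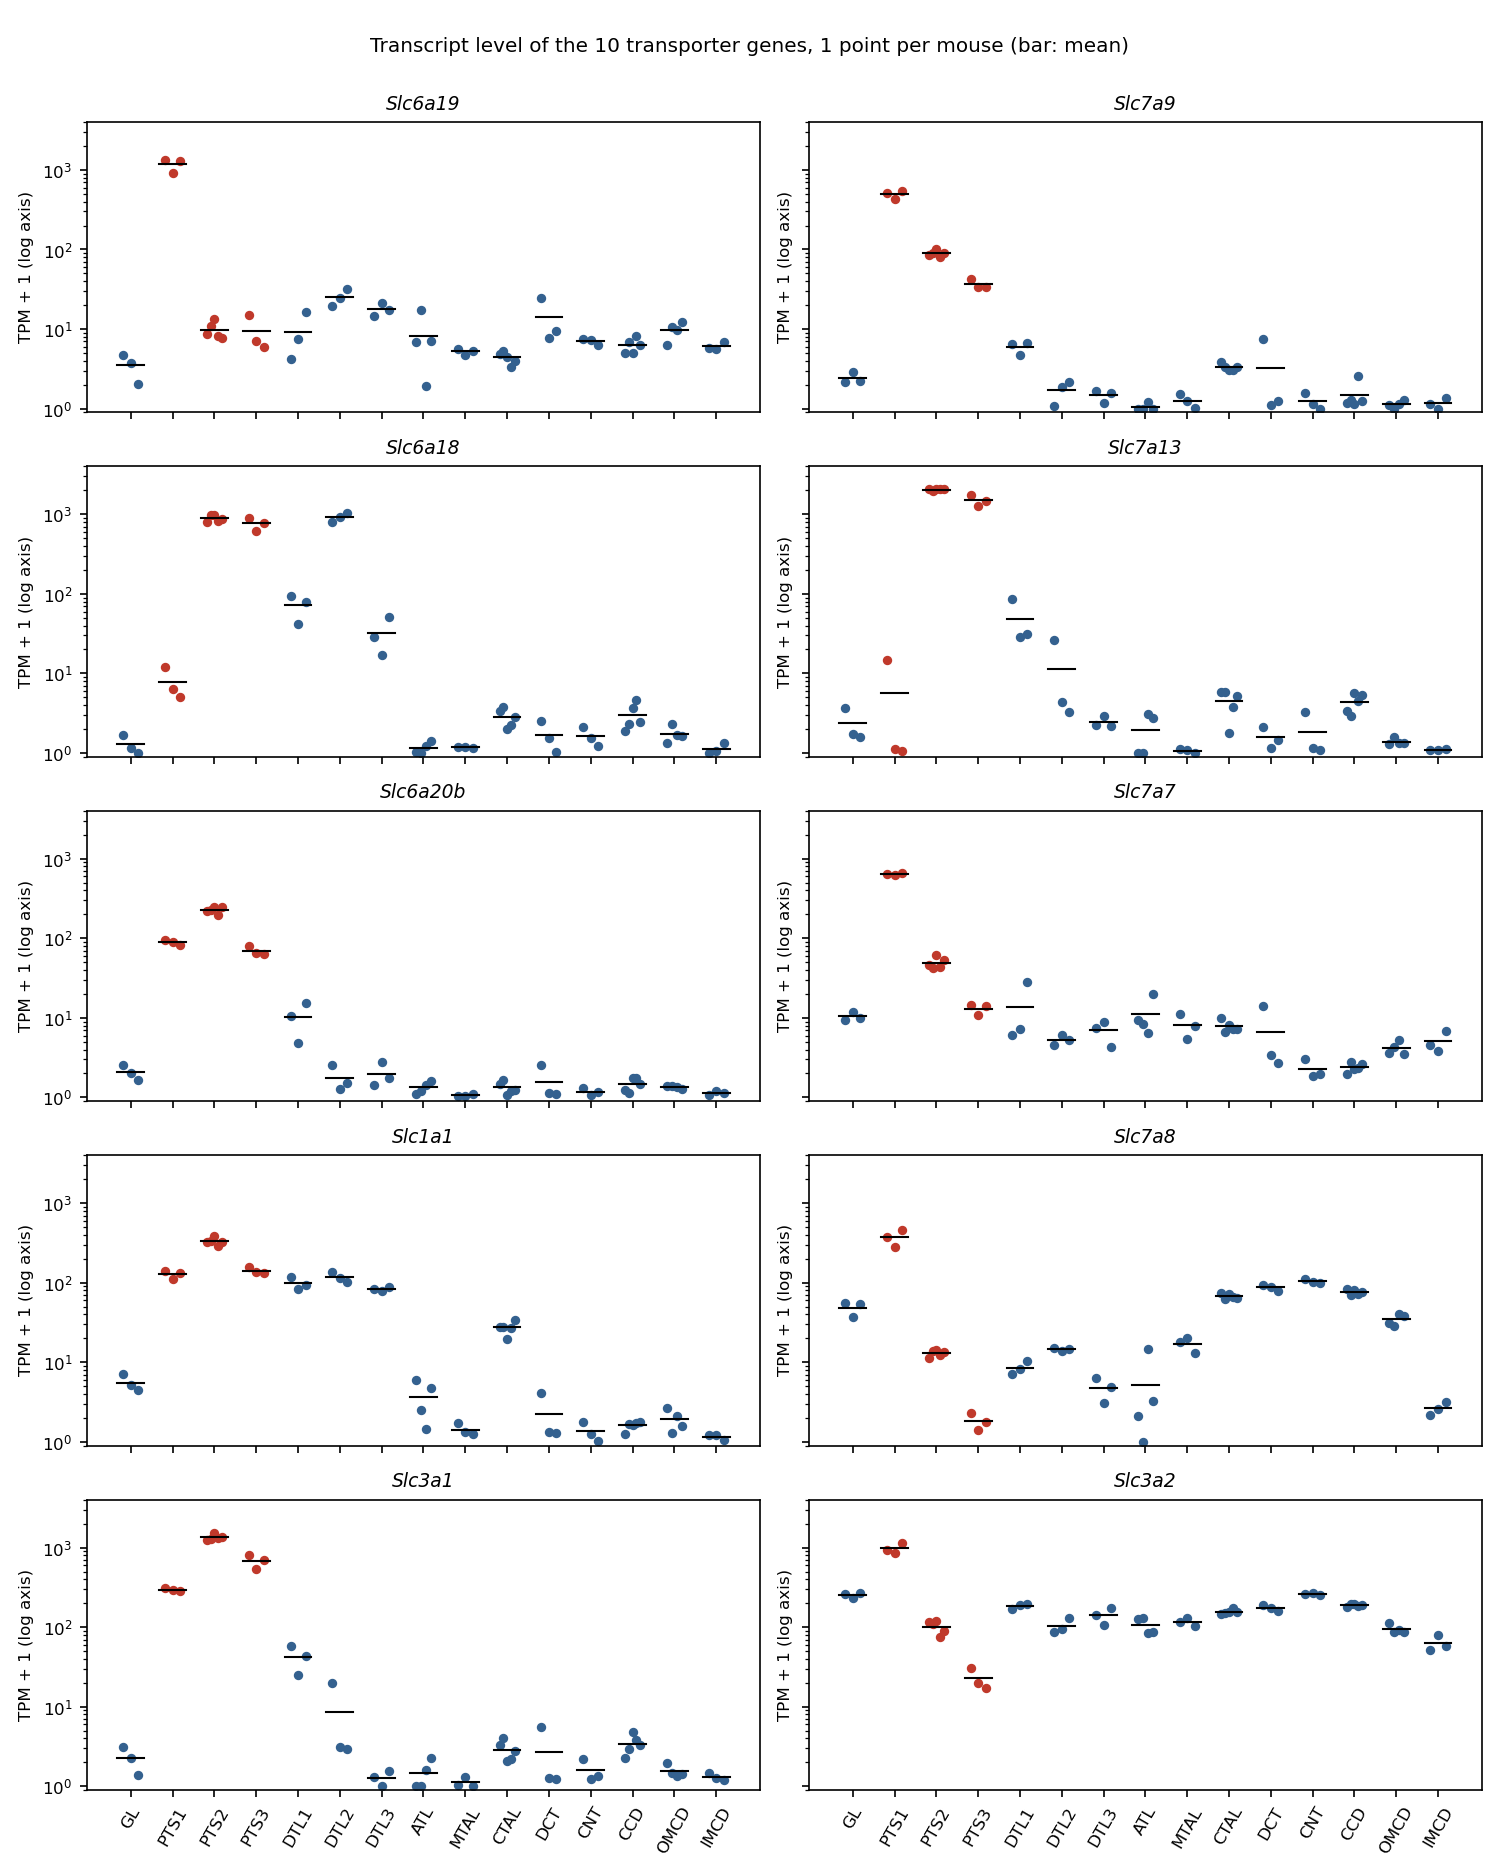
Transcript level of each of the 10 genes (TPM + 1, logarithmic vertical axis) in the 15 groups along the nephron, with 1 point per mouse, the mean as a bar, and proximal groups in red. Slc6a19 stood at 901 to 1327 TPM in PTS1 and at no more than 31.2 TPM in any mouse of another group, while Slc3a2 was at 16.3 TPM or more in every mouse.

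Every member differed among the 15 groups in limma's moderated F-test, as did 93.9% of all genes tested. A stricter test asked whether a gene was higher in 1 proximal segment than in all 14 remaining groups, each by a log2 difference of 1 or more. It was passed in PTS1 by 5 members (Slc6a19, Slc7a9, Slc7a7, Slc7a8 and Slc3a2), against 0.544% of all genes, in PTS2 by Slc6a20b and Slc1a1, against 0.257%, and in PTS3 by none of the members, against 0.101%. The PTS1 margin over the next group was largest for Slc6a19, at 5.55 over DTL2 (SE 0.44, adjusted p 1.46e-13 by limma), and was 3.73 for Slc7a7 and 2.48 for Slc7a9, both over PTS2. It was 1.91 for Slc3a2 and 1.80 for Slc7a8, both over CNT. The PTS1 margin of Slc7a8 lost its call without PTS1 mouse 3 (1.62, adjusted p 0.0891) and with a pseudocount of 0.1. The PTS2 margin of Slc1a1 lost its call without PTS2 mouse 4, PTS3 mouse 2 or PTS3 mouse 3 (adjusted p 0.0538, 0.128 and 0.117), and both PTS2 calls were lost with a pseudocount of 0.1 and under quantile normalization.

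Between PTS1 and PTS2 all 10 genes were called, 5 higher in PTS1 and 5 higher in PTS2. Over all genes 9.57% were called, 4.46% higher in PTS1 and 5.1% higher in PTS2. The genes higher in PTS1 were Slc6a19, Slc7a9, Slc7a7, Slc7a8 and Slc3a2, so all 3 basolateral genes were among them, and the genes higher in PTS2 were Slc6a18, Slc6a20b, Slc1a1, Slc3a1 and Slc7a13. Between PTS2 and PTS3, 7 members were called, all higher in PTS2 (7) and none lower (0), against 4.7% of all genes (3.94% higher and 0.755% lower in PTS2). The exceptions were Slc6a19, Slc6a18 and Slc7a13. Between the ends, PTS1 and PTS3, 8 members were called, 5 higher in PTS1 and 3 higher in PTS3, against 10.1% of all genes (6.14% and 3.97%). The median log2 difference was 0.56, 1.26 and 2.06 over the members in these comparisons and 0.15, 0 and 0.18 over all genes. The comparisons share samples, so the calls of a gene in them are not independent. With a pseudocount of 0.1 or under quantile normalization the PTS2 to PTS3 count was 4. Of all genes called between PTS1 and PTS2, 46.6% were higher in PTS1, but 62.0% after median ratio rescaling, 53.8% under quantile normalization and 77.3% and 36.3% with a pseudocount of 0.1 and 5, so the balance of all genes in this comparison depends on the processing. Of those called between PTS2 and PTS3, 83.9% were higher in PTS2 (64.5% after rescaling and 69.1% under quantile normalization), and of those called between PTS1 and PTS3, 60.7% were higher in PTS1 (82.3% with a pseudocount of 0.1).

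**Figure D2:**
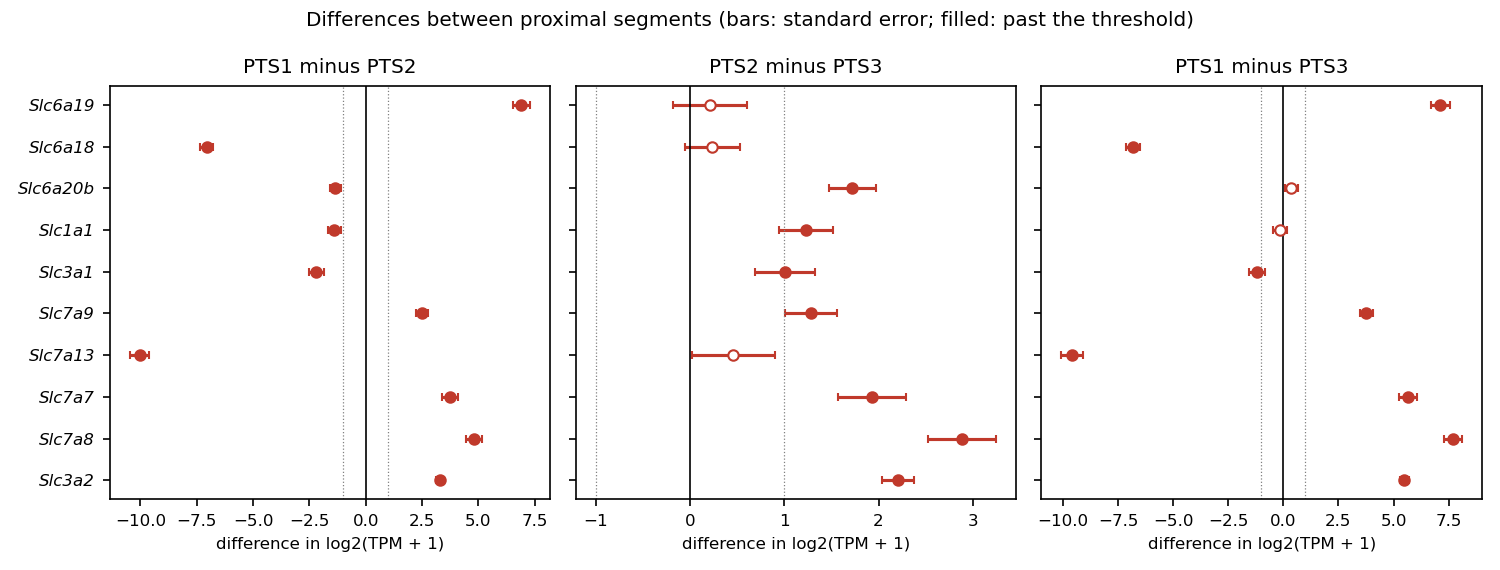
Difference in log2(TPM + 1) between proximal segments for each of the 10 genes, with the standard error as a bar, filled symbols for differences past the threshold and dotted lines at a log2 difference of 1 in either direction. The panels have different horizontal scales, with values from -10.03 for Slc7a13 to 6.91 for Slc6a19 in PTS1 minus PTS2 and from -9.57 for Slc7a13 to 7.70 for Slc7a8 in PTS1 minus PTS3.

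Slc6a19 and Slc6a18, the apical carriers of neutral amino acids, were near mirror images within the proximal tubule. Slc6a19 (ENSMUSG00000021565) was measured at 1327, 901 and 1283 TPM in the PTS1 mice, at 7.72, 9.9, 12.3, 7.29 and 6.77 TPM in the PTS2 mice and at 14.1, 5.98 and 4.92 TPM in the PTS3 mice. No mouse of PTS2 or PTS3 came near the PTS1 range, while the PTS2 and PTS3 mice overlapped. Slc6a19 differed by 6.91 for PTS1 minus PTS2 (SE 0.39, adjusted p 4.29e-19 by limma) and 0.21 for PTS2 minus PTS3 (SE 0.39). Outside the proximal tubule its highest mean was 24.4 ± 6.34 TPM in DTL2, 47.9-fold below PTS1, and below PTS1 the mice of each group overlapped those of the next in rank as far as IMCD.

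Slc6a18 (ENSMUSG00000021612) showed the opposite order. It stood at 11.1, 5.32 and 4.08 TPM in PTS1, at 799.9, 983, 987, 824.5 and 868 TPM in PTS2 and at 903, 618 and 783 TPM in PTS3. Every PTS2 and PTS3 mouse was thus above every PTS1 mouse, and the PTS2 and PTS3 ranges overlapped. The difference was -7.06 for PTS1 minus PTS2 (SE 0.29, adjusted p 3.47e-24 by limma) and 0.24 for PTS2 minus PTS3 (SE 0.29), which was not called. The highest PTS1 value came from a mouse whose 2 pieces held 3.31 and 19.0 TPM. In the annotation Slc6a18 and Slc6a19 are adjacent protein-coding genes on chromosome 13, so these neighbours had their highest proximal levels in different segments. Slc6a19 took 27.8 ± 2.69% of the members' summed TPM in PTS1 and Slc6a18 0.164 ± 0.0845%, and in PTS2 the shares were 0.171 ± 0.0369% and 17.5 ± 1.26%.

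The third member of this family, Slc6a20b (ENSMUSG00000025243), peaked in the middle of the proximal tubule. Its levels were 92.9, 90.2 and 80.5 TPM in PTS1, 219.7, 227, 245, 194 and 249 TPM in PTS2 and 79.6, 64.9 and 62.5 TPM in PTS3, with no overlap between PTS2 and either neighbour. It differed by -1.36 for PTS1 minus PTS2 (SE 0.25, adjusted p 2.95e-05 by limma) and by 1.72 for PTS2 minus PTS3 (SE 0.25, adjusted p 9.56e-07). Under quantile normalization the first of these was -0.84 and was not called. Slc6a20b was almost restricted to the proximal tubule, with 9.24 ± 5.18 TPM in DTL1 and at most 1.07 TPM as the mean of any further group. Its neighbour on chromosome 9, Slc6a20a, which encodes the sodium-dependent imino acid (proline) carrier, was lower and also had its highest mean in PTS2, at 5.75, 29.6 and 19.2 TPM from PTS1 to PTS3, but with PTS3 above PTS1. Its log2 difference was -2.17 for PTS1 minus PTS2 (SE 0.36, adjusted p 4.06e-06) and -1.53 for PTS1 minus PTS3 (SE 0.40, adjusted p 0.00338). Of all 50-base windows in annotated transcripts of Slc6a20b, 27.9% were also found in other genes, mostly the neighbour Sacm1l, and 26.7% of those of Slc6a20a were shared, so reads could be divided between these genes and their levels are uncertain to that extent.

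Slc1a1 (ENSMUSG00000024935), the apical carrier of glutamate and aspartate, changed least along the proximal tubule. It was 138, 109.5 and 131 TPM in PTS1, 326, 333, 387, 289.9 and 324 TPM in PTS2, and 157, 134 and 132 TPM in PTS3. PTS2 mice stood above all others, while the PTS1 and PTS3 ranges overlapped. PTS1 minus PTS2 was -1.39 (SE 0.29, adjusted p 0.000196 by limma), PTS2 minus PTS3 was 1.23 (SE 0.29, adjusted p 0.00151) and PTS1 minus PTS3 was -0.16 (SE 0.32), which was not called. Both called differences fell under 1 log2 unit with quantile normalization (-0.90 and 0.82), and that of PTS2 minus PTS3 was also not called with a pseudocount of 0.1 (1.23, adjusted p 0.119 by limma). The thin descending limbs also carried Slc1a1, at 97.3 ± 17.0, 117 ± 15.9 and 82.8 ± 5.75 TPM in DTL1, DTL2 and DTL3, and it reached 26.4 ± 5.27 TPM in CTAL against 0.428 ± 0.245 TPM in MTAL. The summed proximal markers were 268 TPM in CTAL and 6.975 TPM in MTAL, or 67.9 and 3.42 TPM without Kap. Their part in the Slc1a1 levels of CTAL and MTAL was not tested. Of the transcript windows of Slc1a1, 31.0% are shared with the overlapping gene 4430402I18Rik.

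The subunits of the apical cystine system did not peak together. The heavy subunit Slc3a1 (ENSMUSG00000024131) was at 309.6, 289 and 283 TPM in PTS1, at 1231, 1282, 1534, 1303 and 1375 TPM in PTS2 and at 804, 531 and 702 TPM in PTS3. The 3 ranges did not overlap. PTS1 minus PTS2 was -2.19 (SE 0.32, adjusted p 4.20e-07 by limma), whereas PTS2 minus PTS3, at 1.01 (SE 0.32, adjusted p 0.0261), lay at the edge of the threshold. This last call was lost in 11 of the alternatives, among them both rescalings and leaving out PTS2 mouse 4 (0.96, adjusted p 0.0598), PTS3 mouse 2 (0.83, adjusted p 0.195), PTS3 mouse 3 (1.04, adjusted p 0.0669) or the unnumbered PTS2 mouse (0.996, adjusted p 0.0461). PTS1 minus PTS3 was -1.18 (SE 0.36, adjusted p 0.0139), a call lost without PTS3 mouse 1 (-1.04, adjusted p 0.0756), with a pseudocount of 0.1, with pieces averaged as TPM and with all 93 samples. Slc3a1 shares 24.8% of its transcript windows with the neighbouring gene Prepl.

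Slc7a9 (ENSMUSG00000030492), the carrier that Slc3a1 accompanies in cystine uptake, declined from the first part on. It was at 513, 434 and 540.3 TPM in PTS1, at 83.3, 89.7, 99.4, 79.97 and 88.1 TPM in PTS2 and at 41.9, 33.0 and 33.2 TPM in PTS3, again with no overlap. The log2 difference was 2.48 for PTS1 minus PTS2 (SE 0.27, adjusted p 5.15e-10 by limma) and 1.28 for PTS2 minus PTS3 (SE 0.27, adjusted p 0.000489). The second call was lost with a pseudocount of 0.1 (adjusted p 0.218) and under quantile normalization (0.79, adjusted p 0.0368). Beyond the proximal tubule no group mean of Slc7a9 exceeded the 4.97 ± 1.05 TPM of DTL1, 99.8-fold below PTS1.

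Slc7a13 (ENSMUSG00000041052), the other partner of Slc3a1, was the most abundant member in PTS2 and PTS3. Its levels were 2060.2, 1942, 2089.7, 2075.5 and 2059 TPM in PTS2 and 1763, 1277 and 1466 TPM in PTS3, against 13.8, 0.125 and 0.05 TPM in PTS1. The first of these PTS1 values came from 2 pieces of 1 mouse with 0.40 and 27.1 TPM. PTS1 minus PTS2 was -10.03 (SE 0.44, adjusted p 3.84e-23 by limma), the largest difference of any member, and PTS2 minus PTS3 was 0.46 (SE 0.44), which was not called although the ranges did not overlap. Slc22a6, the PTS2 mark, ranged from 9.42 to 48.3 TPM in the same PTS1 mice, and its part in the PTS1 values of Slc7a13 was not tested. Slc7a13 made up 40.2 ± 2.06% of the members' summed TPM in PTS2 and 46.4 ± 0.914% in PTS3, against 0.107 ± 0.181% in PTS1.

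The start regions of Slc3a1 and Slc7a9 are shown because these genes encode the subunits of one carrier and yet reach their highest levels in different segments, and those of Slc6a20b and Slc6a20a because they are neighbours that both have their highest mean in PTS2. Each line gives 80 bases before and 20 bases from the annotated start on, taken from RefSeq on GRCm38.p6, at chr17:85028267-85028366 (plus strand) for Slc3a1, chr7:35449012-35449111 (plus strand, the first of 2 annotated starts) for Slc7a9, chr9:123632519-123632618 (minus strand) for Slc6a20b and chr9:123678813-123678912 (minus strand) for Slc6a20a. Capitals mark a match, on either strand, to CAAAGTCCA, a core of HNF4 sites.
Slc3a1: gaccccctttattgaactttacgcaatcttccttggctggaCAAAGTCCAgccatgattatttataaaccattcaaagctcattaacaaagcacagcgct
Slc7a9: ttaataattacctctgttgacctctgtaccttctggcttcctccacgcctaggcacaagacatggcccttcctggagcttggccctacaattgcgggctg
Slc6a20b: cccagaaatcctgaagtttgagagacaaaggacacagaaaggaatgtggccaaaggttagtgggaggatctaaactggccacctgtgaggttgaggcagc
Slc6a20a: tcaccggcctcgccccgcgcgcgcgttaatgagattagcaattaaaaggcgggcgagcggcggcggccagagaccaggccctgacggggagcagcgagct
Of these 4 windows only that of Slc3a1 held the motif. Over all 32851 promoters of 300 bases in the RefSeq table, 0.475% held it. A match describes the letters and is not evidence of binding. Starts of 8 of the 10 members were in that table.

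The balance between the partners of Slc3a1 was followed as a ratio within each mouse. The ratio of Slc7a13 to Slc7a9 was 0.0122, 0.00259 and 0.00194 in the PTS1 mice, 24.5, 21.6, 20.8, 25.8 and 23.1 in the PTS2 mice and 41.5, 38.2 and 43.0 in the PTS3 mice, each computed from TPM + 1. The 3 ranges did not overlap. By contrast the ratio of Slc3a1 to the sum of its 2 partners lay between 0.404 and 0.701 in every mouse, with geometric means of 0.593, 0.629 and 0.439. Within that span every PTS3 mouse (0.404 to 0.468) was below every PTS1 mouse (0.525 to 0.666) and every PTS2 mouse (0.574 to 0.701). For the basolateral genes, the ratio of Slc3a2 to the sum of Slc7a7 and Slc7a8 had geometric means of 0.963, 1.65 and 1.60, and every PTS2 and PTS3 mouse was above every PTS1 mouse. Of the 9 differences tested, none had an adjusted p under 0.05 in two-sided exact permutation tests (smallest adjusted p 0.0804). The smallest p these tests allow is 0.0357 for 3 mice against 5 and 0.1 for 3 against 3, and 4 of the 6 comparisons with PTS2 gave that smallest p. With these limits no adjusted p over the 9 tests could fall under 0.05. The lack of calls was thus fixed by the numbers of mice and tests, and no conclusion on the ratios is drawn from it.

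**Figure D3:**
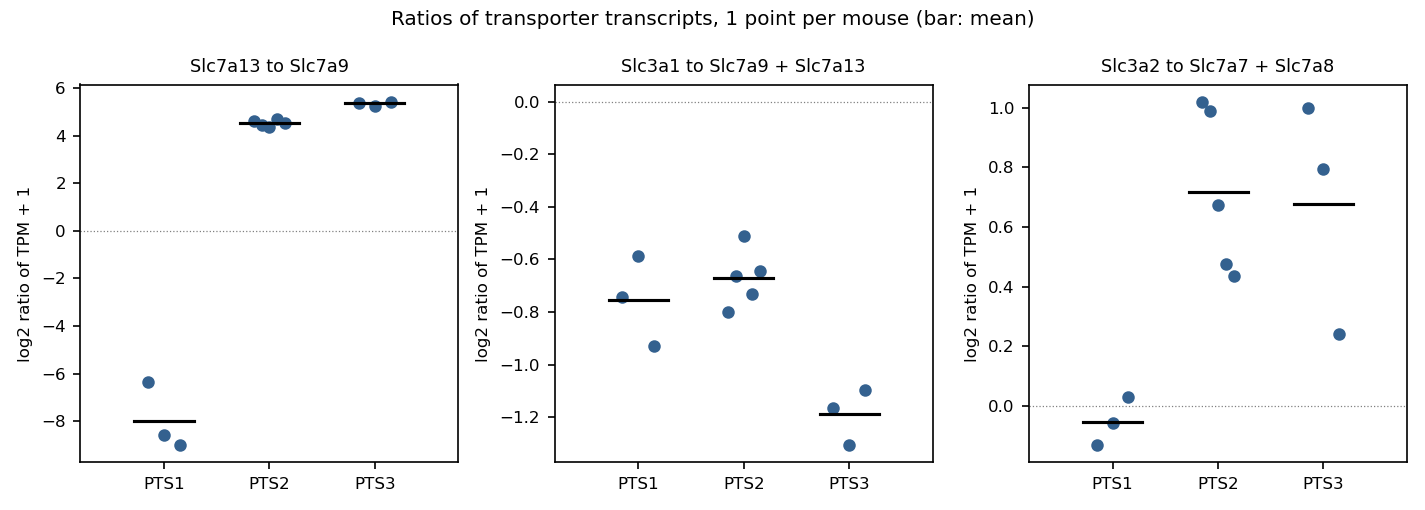
Log2 ratios of transcript levels (from TPM + 1) within each mouse of PTS1, PTS2 and PTS3, with 1 point per mouse and the mean as a bar, and with vertical scales that differ between panels. The ratio of Slc7a13 to Slc7a9 spans from -9.01 to 5.43 on the log2 scale, while that of Slc3a1 to its 2 partners stays between -1.31 and -0.51.

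The basolateral genes were concentrated in PTS1 within the proximal tubule. Slc7a7 (ENSMUSG00000000958), the exporter of basic amino acids, was at 649, 625.1 and 666 TPM in PTS1, at 45.0, 41.6, 61.2, 42.1 and 52.5 TPM in PTS2 and at 13.3, 9.84 and 13.1 TPM in PTS3. Slc7a8 (ENSMUSG00000022180), the exchanger of neutral amino acids, was at 374, 278.5 and 465.9 TPM in PTS1, at 10.5, 12.8, 13.4, 11.2 and 12.3 TPM in PTS2 and at 1.28, 0.42 and 0.795 TPM in PTS3. Their heavy subunit Slc3a2 (ENSMUSG00000010095) was at 933, 864 and 1154 TPM in PTS1, at 113.6, 108.8, 119, 74.4 and 88.0 TPM in PTS2 and at 29.97, 19.0 and 16.3 TPM in PTS3. In each of the 3 genes the PTS1 mice were highest and the PTS3 mice lowest, with no overlap between segments. PTS1 minus PTS2 was 3.73 for Slc7a7 (SE 0.36), 4.81 for Slc7a8 (SE 0.36) and 3.28 for Slc3a2 (SE 0.17), with adjusted p of 1.09e-11, 6.90e-15 and 9.52e-21 by limma. PTS2 minus PTS3 was 1.93, 2.88 and 2.21, with adjusted p of 6.81e-05, 5.14e-08 and 5.96e-14. From PTS1 to PTS3 the mean levels differed 53.5-fold for Slc7a7, 448-fold for Slc7a8 and 45.2-fold for Slc3a2. Slc7a7 shares 5.25% of its transcript windows with the neighbouring gene Oxa1l.

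Outside the proximal tubule the basolateral genes parted. Slc7a7 had no further high segment, and its means there ran from 1.3 TPM in CNT to 12.8 TPM in DTL1. Slc7a8 had a second stretch of high levels in the distal nephron, at 66.5 ± 5.57 TPM in CTAL, 86.4 ± 7.91 in DCT, 104 ± 5.31 in CNT and 75.9 ± 6.15 in CCD, and it was 33.7 ± 5.92 in OMCD and 1.65 ± 0.482 in IMCD. In rank order the CNT mice (109, 102 and 99.3 TPM) stood above all DCT mice, whereas DCT, CCD and CTAL mice overlapped in turn. Slc3a2 was at 61.9 TPM or more on average in every group except PTS3, with 260 ± 9.27 TPM in CNT and 253 ± 18.1 TPM in GL behind PTS1. The CNT mice (260, 269 and 250.4 TPM) overlapped the GL mice and lay above those of all other groups but PTS1.

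The distal levels were tested by setting CNT against MTAL, the medullary thick limb, and against IMCD, comparisons added after these values were seen. CNT had the highest mean of Slc7a8 and of Slc3a2 outside the proximal tubule, and the p-values do not allow for this choice. CTAL, which was not set against CNT, held 66.5 TPM of Slc7a8 and 155 TPM of Slc3a2. Against MTAL, Slc7a8 was 2.64 log2 units higher in CNT (SE 0.41, adjusted p 1.38e-06 by limma), Slc3a2 was 1.17 higher (SE 0.19, adjusted p 3.38e-06) and Slc7a7 was 1.81 lower (CNT minus MTAL -1.81, SE 0.40, adjusted p 0.000511). These were the 3 members called, against 9.77% of all genes, and the median difference was 0.41 over the members and 0.01 over all genes. Against IMCD, Slc7a8 was 5.44 higher in CNT (SE 0.41, adjusted p 2.69e-15) and Slc3a2 2.08 higher (SE 0.19, adjusted p 1.07e-12), and the third call was Slc7a7 (CNT minus IMCD -1.10, SE 0.40, adjusted p 0.0351), against 16.5% of all genes (medians 0.23 and -0.07). The 4 leukocyte marker genes summed to 329 TPM in CNT (183 to 495 over mice), 399.8 TPM in MTAL (309.9 to 551) and 4.69 TPM in IMCD (4.67 to 4.73), and the 4 endothelial genes to 105, 57.7 and 93.9 TPM, and their part in these differences was not tested. Among the collecting duct marker genes, Atp6v1g3 averaged 917 TPM in CNT, 0.00333 TPM in MTAL and 0.872 TPM in IMCD. Aqp3 was at 2327, 0.00833 and 384 TPM in these groups and Aqp2 at 6186, 0.607 and 27393 TPM. The part of these genes was not tested either. The call of Slc3a2 against MTAL was lost after median ratio rescaling (0.85) and quantile normalization (0.99), that of Slc7a7 against MTAL with a pseudocount of 5 (-0.93), and that of Slc7a7 against IMCD in 7 alternatives, 4 of them single mice left out (CNT mouse 2 or 3, IMCD mouse 1 or 3, adjusted p 0.0579 to 0.193). Of all genes called between CNT and MTAL, 71.8% were higher in CNT, a share that was 54.5% after rescaling and 54.7% under quantile normalization. The heavy subunits Slc3a1 and Slc3a2 were unlike here, Slc3a1 being at 0.603 ± 0.542 TPM in CNT.

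At the end of the proximal tubule the members separated again. Slc6a18, the glycine and neutral amino acid carrier, was as high in DTL2 as in the proximal straight tubule, at 807, 922 and 1049.5 TPM in the 3 DTL2 mice, and these overlapped both the PTS2 and the PTS3 mice. In the other descending limbs it was far lower, at 93.5, 41.0 and 79.0 TPM in DTL1 and 28.1, 16.2 and 49.7 TPM in DTL3, with no mouse within the DTL2 range. DTL2 minus DTL1 was 3.75 (SE 0.32, adjusted p 1.32e-12 by limma) and DTL2 minus DTL3 was 4.97 (SE 0.32, adjusted p 2.04e-16), while PTS3 minus DTL2 was -0.28 (SE 0.32) and not called. That last difference was 0.97 after median ratio rescaling, where it still fell short of 1, so its direction depends on scaling. The DTL2 comparisons with DTL1 and DTL3 were added after the value of Slc6a18 was seen, and their p-values do not allow for this choice.

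The cystine carrier subunits Slc7a13 and Slc3a1 were low in DTL2. Slc7a13 was at 25.0, 3.41 and 2.26 TPM in the DTL2 mice and Slc3a1 at 18.7, 2.12 and 1.92 TPM, and in the mouse with the high values 1 of 2 pieces held 49.4 TPM of Slc7a13 and 37.2 TPM of Slc3a1 while the lowest held 0.63 and 0.16 TPM. As a share of the PTS3 mean, DTL2 held 121% for Slc6a18 but 0.681% for Slc7a13, 1.12% for Slc3a1, 1.13% for Slc6a20b and 1.93% for Slc7a9. The 7 proximal marker genes stood between 0.306% (Kap) and 18.02% (Slc34a1) of their PTS3 level in DTL2, so the level of Slc6a18 there was above the share of each of them. Slc1a1 was at 83.0% and Cltrn, the gene of collectrin, at 23.6%. Slc34a1 reached its share through 1 mouse, at 22.5 TPM against 0.347 and 1.05 TPM in the others (the lowest, median and highest of 3). Slc6a18 in DTL1, at 9.26% of PTS3, was by contrast within the 3.31% (Kap) to 18.8% (Cubn) range of the markers there.

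**Figure D4:**
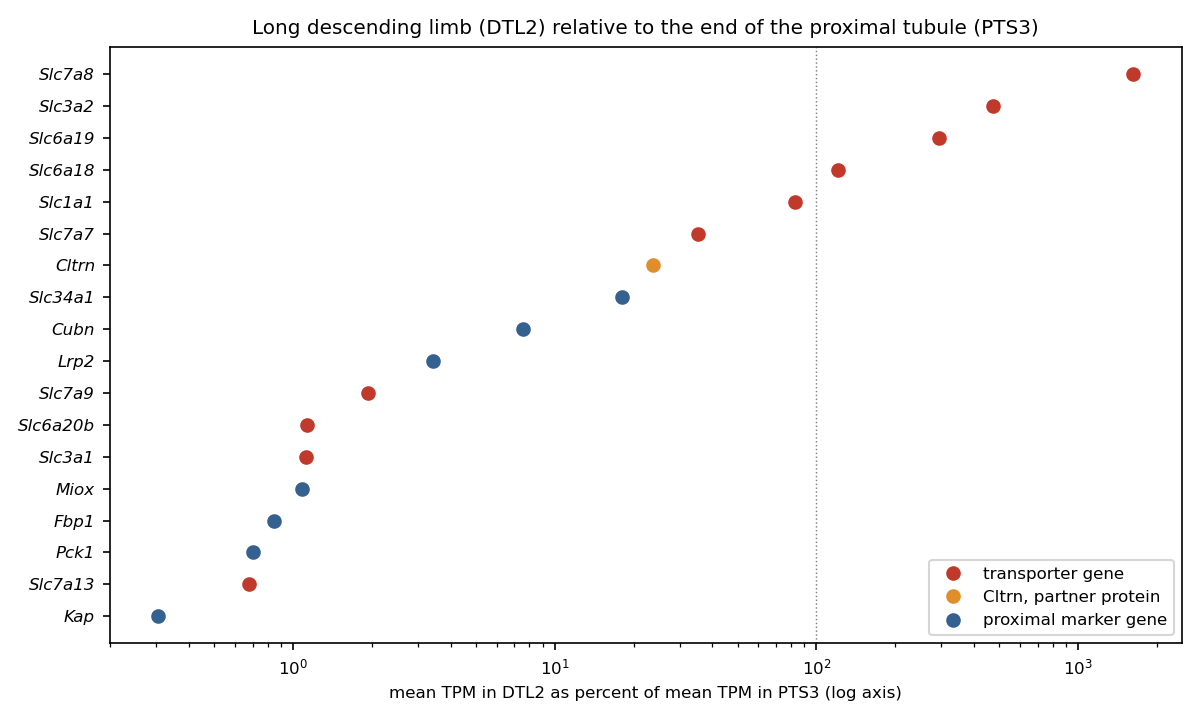
Mean level in DTL2 as a percent of the mean level in PTS3 (logarithmic horizontal axis) for the 10 transporter genes (red), Cltrn (orange) and 7 proximal marker genes (blue), with a dotted line at equal levels. Slc6a18 lies at 121%, whereas Slc7a13, Slc3a1, Slc6a20b and Slc7a9 lie between 0.681% and 1.93%, among the markers.

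Over the whole set, PTS3 and DTL1 differed in 7 members (5 higher and 2 lower in PTS3), against 65.5% of all genes, and PTS3 and DTL2 in 8 (5 higher and 3 lower), against 40.0%. The median difference of all genes was -1.33 and -0.71 in these comparisons, and 1.61 and 0.87 over the members. Slc3a2 was lower in PTS3 than in both limbs, by -3.09 against DTL1 (SE 0.19, adjusted p 1.73e-18 by limma) and -2.23 against DTL2 (SE 0.19, adjusted p 6.39e-14). Markers of other cell types were also lower in PTS3. The summed level of 4 endothelial genes was 36.0 TPM in PTS3 (20.4 to 45.5 over mice), 782 TPM in DTL1 (748.5 to 816) and 349.7 TPM in DTL2 (281 to 435), and it was 2752 TPM in GL, where Slc3a2 was also high. The 4 leukocyte genes summed to 37.9, 105 and 121 TPM in PTS3, DTL1 and DTL2, with Ptprc at 0 in every PTS3 mouse, and the 4 stromal genes to 0.39, 22.4 and 7.29 TPM. Their part in the differences between PTS3 and the limbs was not tested. Slc7a8 was lower by -2.26 against DTL1 (SE 0.41, adjusted p 3.59e-06) and -3.05 against DTL2 (SE 0.41, adjusted p 1.72e-08), but under quantile normalization the first was 0.26 (adjusted p 0.592), the opposite sign. Slc6a19 was lower in PTS3 than in DTL2 (-1.57, SE 0.44, adjusted p 0.0023), a call lost after median ratio rescaling (-0.42) and quantile normalization (-0.30). Median ratio rescaling added calls toward PTS3 against DTL1 for Slc1a1 (1.96), Slc6a19 (1.32) and Slc7a7 (1.60), and against DTL2 for Slc1a1 (1.51, adjusted p 6.14e-05 by limma). Quantile normalization likewise added Slc6a19 (2.37) and Slc7a7 (2.31) against DTL1, and Slc7a7 was also called there without DTL1 mouse 5 (1.04). The call of Slc7a7 against DTL2 was lost with a pseudocount of 5 (0.91). Among all genes called, 5.73% were higher in PTS3 than in DTL1 and 9.62% than in DTL2, shares that were 20.2% and 33.2% after rescaling and 46.1% and 42.3% under quantile normalization.

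Within the thin limbs, DTL2 and DTL1 differed in 7 members (2 higher and 5 lower in DTL2), against 28.2% of all genes (medians -1.002 and -0.54), and DTL2 and DTL3 in 3, all higher in DTL2, against 9.58% (medians 0.48 and -0.20). Besides Slc6a18, Slc6a19 was higher in DTL2 than in DTL1, at 18.6, 23.5 and 31.2 TPM in the DTL2 mice and 3.17 to 15.2 TPM in DTL1 (1.66, SE 0.44, adjusted p 0.00198 by limma). The 5 genes lower in DTL2 were Slc3a1 (-3.37), Slc7a13 (-3.13), Slc6a20b (-2.48), Slc7a9 (-1.91) and Slc7a7 (-1.15). The summed proximal markers were 2877 TPM in DTL1 and 282.5 TPM in DTL2, or 379 and 52.1 TPM without Kap, and their part in these 5 differences was not tested. The call of Slc7a7 rests on DTL1 mouse 5, with 27.1 TPM, since without that mouse the difference was -0.42 (adjusted p 0.370), and it was also lost without DTL2 mouse 1 or 3 (adjusted p 0.0632 and 0.0526), under both rescalings and with a pseudocount of 5. The call of Slc7a9 was lost with a pseudocount of 5 (-0.81) and quantile normalization (-0.69). Calls were gained for Slc7a8 under quantile normalization (1.90, adjusted p 0.000139 by limma) and for Slc3a2 without DTL2 mouse 3 (-1.03, adjusted p 0.000111). Against DTL3 the other 2 genes higher in DTL2 were Slc3a1 (1.58, or 0.76 and not called with a pseudocount of 5) and Slc7a8 (1.68). In DTL3 the summed proximal markers were 27.5 TPM (8.62 to 43.06 over mice), or 16.2 TPM without Kap. The 4 leukocyte genes summed to 121 TPM in DTL2 (103 to 134) and 12.1 TPM in DTL3 (8.5 to 13.8). The part of these markers in the differences from DTL3 was not tested. Of all genes called, 10.6% were higher in DTL2 than in DTL1 and 36.5% than in DTL3, against 58.0% and 57.9% under quantile normalization, 17.2% and 52.5% after median ratio rescaling and 24.1% and 50.7% with a pseudocount of 5.

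Cltrn, whose protein brings the Slc6 carriers to the apical membrane, was higher than any member in PTS1, at 5464.5, 4902 and 4807 TPM in PTS1, 1289, 1332, 1149, 1529 and 1211 TPM in PTS2 and 1443, 1500 and 1722 TPM in PTS3. The PTS1 mice stood apart, and PTS2 and PTS3 overlapped. PTS1 minus PTS2 was 1.97 (SE 0.38, adjusted p 5.96e-05 by limma), and Cltrn also passed the test of exceeding every other group in PTS1 (margin 1.70 over PTS3, adjusted p 0.0182). In the thin limbs it was at 440, 262 and 401 TPM in DTL2, against 102 to 119 TPM in DTL1 and 47.9 to 168 TPM in DTL3.

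Among 37 other genes of amino acid and peptide transport, 16 were called between PTS1 and PTS2 (7 higher and 9 lower in PTS1), 5 between PTS2 and PTS3 (all 5 higher in PTS2) and 17 between PTS1 and PTS3 (10 and 7), where 9.57%, 4.7% and 10.1% of all genes were called. The median log2 difference over the list was 0.41, 0.06 and 0.39 in these comparisons, against 0.15, 0 and 0.18 over all genes. The largest differences toward PTS1 against PTS2 were those of Slc7a2, a carrier of basic amino acids, at 10.2 TPM against 0.004 TPM (3.43, SE 0.22, adjusted p 1.59e-17 by limma), and of Slc43a2, a carrier of large neutral amino acids, at 139 against 17.8 TPM (2.88, SE 0.29, adjusted p 3.53e-11). Slc43a2 was at 0.553 TPM in PTS3, so that like the 3 basolateral members it fell at both steps. In the other direction were Slc38a3, a basolateral glutamine carrier, at 0.593 TPM in PTS1 and 102 TPM in PTS2 (-6.03, SE 0.36, adjusted p 3.24e-18), and Slc1a4, a carrier of small neutral amino acids, at 0.733 and 43.9 TPM (-4.70, SE 0.39, adjusted p 1.98e-13). Between PTS2 and PTS3 the second-largest difference was that of Slc38a7 (1.52, SE 0.25).

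Of the same 37 genes, 21 were called between the proximal and the other tubule groups, 9 higher and 12 lower in the proximal tubule, with a median of -0.47. Slc6a13, a carrier of GABA and taurine, was 5.96 log2 units higher in the proximal tubule (SE 0.19, adjusted p 7.22e-30 by limma), and Slc6a20a was 3.24 higher (SE 0.17). The largest differences the other way were those of Slc1a5, a carrier of neutral amino acids (-5.08, SE 0.21, adjusted p 2.48e-25), and Slc7a6, which like Slc7a7 exports basic amino acids with Slc3a2 (-4.32, SE 0.10, adjusted p 1.12e-34). Thus 8 of the 10 members but 9 of these 37 genes were higher in the proximal tubule, against the 4.02% of all genes given above. The members and all gene lists were chosen with earlier results of these data known, so this contrast is a description only.

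Peptidases, most of them in the brush border, release amino acids and dipeptides, and 10 peptidase genes were followed, among them Cndp2, a cytosolic dipeptidase. All but 2 were higher in the proximal than in the other tubule groups (8 higher, none lower, median 2.99, against 4.02% of all genes higher and 19.8% lower), led by Mep1a (7.01, SE 0.23, adjusted p 3.20e-29 by limma), a meprin subunit, and Ggt1 (5.69, SE 0.21, adjusted p 1.33e-27), which cleaves glutathione. Between PTS1 and PTS2, 7 were called, with Dpep1, a dipeptidase, higher in PTS1 (502 against 7.52 TPM, 5.98, SE 0.48) and the other 6 higher in PTS2, with the largest differences for Mep1b (1.08 against 707 TPM, -8.91, SE 0.37) and Ace (0.427 against 107 TPM, -6.24, SE 0.28). The median was -4.29. From PTS2 to PTS3, 5 fell, most of all Enpep, an aminopeptidase (63.5 to 0.942 TPM, 5.18, SE 0.21), and Dpep1 (2.28, SE 0.48), with a median of 1.19. Between PTS1 and PTS3, 8 were called, 2 higher in PTS1 and 6 higher in PTS3, with a median of -3.02. The shares of all genes called in these 3 comparisons were the 9.57%, 4.7% and 10.1% given above. Some of the 10 genes had their highest mean outside the proximal tubule. Enpep averaged 1340 TPM in GL, which was not part of the contrast with the other tubule groups, and 138 TPM in DTL2. Others, such as Ggt1 at 3916 TPM, had it in PTS2.

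Regulators of proximal genes were followed through 4 listed genes, of which 3 were higher and 1 was lower in the proximal than in the other tubule groups, against 4.02% and 19.8% of all genes. Hnf4a (5.82, SE 0.13, adjusted p 4.75e-35 by limma) and Hnf4g (1.59, SE 0.09), transcription factors of the proximal tubule, led those that were higher, while Ppargc1a, a coactivator of mitochondrial genes, was lower (-2.68, SE 0.09). Between PTS1 and PTS2, Maf (16.7 against 1.61 TPM, 2.76, SE 0.26) and Ppargc1a (1.90, SE 0.19) were higher in PTS1, and Hnf4g (-1.42, SE 0.20) higher in PTS2. From PTS2 to PTS3 Ppargc1a fell by a further 2.41 (SE 0.19) and Hnf4g by 1.31 (SE 0.20). Between PTS1 and PTS3, 2 of the 4 were called, Ppargc1a (4.32) and Maf (3.13), both higher in PTS1. All-gene shares for the 3 steps were 9.57%, 4.7% and 10.1%. The medians over this list were 1.44 for the proximal against the other groups and 0.52, 0.84 and 1.51 for PTS1 minus PTS2, PTS2 minus PTS3 and PTS1 minus PTS3.

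The genes most like each member across the 15 group means of log2(TPM + 1) were found among 14509 genes that reached 10 TPM in some group, as a description only, since the groups share samples and each pattern is dominated by a few segments. Slc6a20b was matched most closely by Cdhr2, a brush border cadherin (Pearson's r 0.998), and Fga (0.994), and Slc3a1 by Cyp4a31 and Mettl7b (0.997 and 0.996). Slc7a13 was nearest to Slc22a7, an organic anion carrier, and to the meprin gene Mep1b (0.994 and 0.993). For Slc7a9 the nearest were Hsd3b2 and Ass1, an enzyme of arginine synthesis (0.986 and 0.980), and for Slc6a18 they were Agt, the angiotensinogen gene, and Nceh1 (0.976 and 0.957). Slc7a7 was nearest to Nox4 and Olfm3 (0.955 and 0.953), Slc1a1 to Bdh2 and Galnt14 (0.935 and 0.933) and Slc6a19 to Mir135a-1 and Nepn (both 0.934). The 2 genes with a distal component had looser matches, Slc7a8 with Ctsb and Acss1 (0.896 and 0.889) and Slc3a2 with Plpp7 (0.824). Between members themselves r was highest for Slc6a20b and Slc3a1 (0.985) and lowest for Slc7a13 and Slc3a2 (-0.46).

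Pieces of the same mouse were compared in the proximal and DTL2 mice with more than 1 piece. The median ratio of the highest to the lowest piece was between 1.10 (Slc3a2) and 1.29 (Slc7a9), while the largest ratios, 233 for Slc3a1 and 78.3 for Slc7a13, both came from DTL2 mouse 1.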

How the data were processed

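Hand-dissected glomeruli and tubule segments were sequenced after cDNA synthesis with the SMARTer ultra-low input chemistry and Nextera XT library construction, per the labels' protocols. STAR 2.5.4a and RSEM 1.3.0 are named, without their roles, per the submitters' processing notes; the genome build and annotation are not given in the sources used here. The authors deposited TPM values, and each of the 93 sample columns sums to between 999998.6 and 1000190.3. The segment means in the authors' deposited table match the means of the sample columns except in PTS1, where 17956 genes differ by over 0.05 TPM and the members by -17.3% (Slc7a13) to 10.1% (Slc7a8), so those means were not used and the reason for the difference is not known. TPM keep no read depth, so depth is unknown and no counting interval is given. Columns were matched to samples by name, 92 to a sample title and 1 to its group only, a PTS2 column whose name carries mouse number 2 but a piece letter that matched no title, and which was used as 1 mouse with no number. The 3 single-cell samples were not analysed here.

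Pieces of 1 mouse and segment were averaged as log2(TPM + 1) for the tests, whereas printed levels are arithmetic means of TPM. Tests were made with limma 3.58.1 (lmFit, eBayes with trend) in R 4.3.3 on 53 mouse averages in 15 groups sharing 1 estimate of the spread, after being tested on simulated data. Differences are on the log2(TPM + 1) scale, which understates the change of low genes. P-values measure the spread between mice of 1 strain and sex. Highest-segment tests took the largest one-sided p of 14 contrasts. Ratios used exact permutation tests in scipy 1.17.1. Read sharing was counted in GENCODE M21 transcripts and promoters came from RefSeq GRCm38.p6.

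The members and lists were chosen with earlier results of these data known. All members, Cltrn and Slc6a20a are named, with at most the 2 largest called differences in each direction per list and the 2 genes most like each member, passing over predicted, mitochondrial and ribosomal gene names. Some listed genes are not reported here, and lists are counted without them. Gene tests were recomputed with a pseudocount of 0.1 or 5, a 5 TPM filter or none, median ratio rescaling over 11566 genes, quantile normalization, pieces averaged as TPM, all 93 samples with the mouse as a correlated group, a replicate block, only the 2 groups compared (in 5 of the comparisons), and leaving out each mouse, and ratios with pieces averaged as TPM, no pseudocount and leaving out each mouse. Leaving out the unmatched column, a replicate block with that column as mouse 2, 4 comparisons among thin limb and distal groups, and the proximal comparison without DTL1 to DTL3 were added after the data were seen.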

Additional observations from a re-analysis of the deposited data

Results flagged for a closer look

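Levels of single mice that lay far from the others of their group were sought in 53 sets of 4 or 5 mice, which were each of the 10 members in 5 groups and 3 subunit ratios in PTS2, and 5 were found where 2.65 would be expected by chance at 1 in 20. In PTS2, Slc7a13 was at 1941.8 TPM in mouse 3 and between 2058.8 and 2089.7 TPM in the other 4 mice, a gap that is small against its level. In ATL, Slc7a8 was at 13.63 TPM in mouse 4 and between 0 and 2.29 TPM in the others, and Slc7a9 was at 0.22 TPM in the same mouse and at 0 in the others. In CCD, Slc7a9 was at 1.56 TPM in mouse 4 against 0.14 to 0.30 TPM in the others. In OMCD, Slc7a13 was at 0.59 TPM in mouse 2 against 0.315 to 0.34 TPM in the others. Apart from the first and from Slc7a8 in ATL, these values are near or below 1.6 TPM.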

How the results depend on the processing

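Over all genes, a pseudocount of 0.1 gave 8926 (PTS1 against PTS2), 2640 (PTS2 against PTS3), 8631 (PTS1 against PTS3), 20430 (PTS3 against DTL2) and 16746 calls (proximal against other), and 110, 44 and 8 genes highest in PTS1, PTS2 and PTS3. A pseudocount of 5 gave 1811, 763, 1813, 6216 and 4325 for the same 5 comparisons, 10256 for PTS3 against DTL1, 2719 and 1444 for DTL2 against DTL1 and DTL3, and 1927 and 3318 for CNT against MTAL and IMCD. A filter at 5 TPM, which tests fewer genes, gave 13051 (PTS3 against DTL1), 5262 (DTL2 against DTL1) and 17910 (F-test). Quantile normalization gave 10308 and 7735 (PTS3 against DTL1 and DTL2), 4115 (DTL2 against DTL1), 4555 (proximal against other) and 279, 50 and 83 genes highest in PTS1, PTS2 and PTS3, and median ratio rescaling gave 285 in PTS1 and 119 in PTS3. Leaving out 1 mouse put the genes highest in PTS3 at 18 (without PTS3 mouse 1) to 37. For the members, the PTS2 to PTS3 count was 4 with a pseudocount of 0.1 and 4 under quantile normalization, and the count highest in PTS2 was 0 in both and 1 to 2 over single mice left out, while Slc3a1 also passed with a pseudocount of 5 (adjusted p 0.000334 by limma). The one called value that changed sign was PTS3 minus DTL1 of Slc7a8, 0.26 under quantile normalization. Over single mice left out, the log2 ratio difference of Slc3a1 to its partners (PTS1 minus PTS2) ran from -0.17 to 0.01, at 0.0051 without PTS1 mouse 3, and that of Slc3a2 to its partners (PTS2 minus PTS3) from -0.18 to 0.20, at -0.035, -0.027 and -0.18 without PTS2 mouse 1, PTS2 mouse 3 and PTS3 mouse 3. Other causes of these changes were not tested. Between the 3 proximal segments, where alone this was checked, samples with the same mouse number had correlations of deviations from -0.014 to 0.089. Pairs with unlike numbers were not computed for comparison, so these values cannot tell whether the samples were paired. With the mouse number as a replicate block the calls of Slc3a1 in PTS2 minus PTS3 (0.91, adjusted p 0.0423 by limma) and Slc7a7 in DTL2 minus DTL1 (-0.99, adjusted p 0.0381) were lost and no other member call changed. With the unmatched PTS2 column as mouse 2 (correlations -0.0071 and 0.0080) the replicate block ended that of Slc3a1 (0.97, adjusted p 0.0143) and no other. Among the alternatives that leave out no mouse, 1303 of 1360 member values kept their direction and side of the threshold, 37 lost a call, 9 gained one, the called value above changed sign and 10 values called neither before nor after the change also changed sign. Depth is unknown for TPM, so a member listed at 0 in a group was not detectable rather than absent.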
